A study of Homo sapiens with 6 samples.

Results

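Transcripts of the Wnt pathway were followed in 786-O, a long-established cell line from a human kidney tumour of the clear cell type, under XMU_MP_1 or Vehicle. The genes were taken by name. All Wnt ligand, Frizzled, DKK and SFRP gene symbols were taken, together with LRP5, LRP6, CTNNB1, APC, AXIN1, AXIN2, RNF43, ZNRF3, TCF7, TCF7L1, TCF7L2, LEF1, DVL1, DVL2, DVL3 and GSK3B. This gave 45 of the 17114 genes in the tables. The reference annotation of RefSeq holds 53 protein-coding genes under the same names, and the other 8 were not analysed here.

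Total RNA was sequenced from 3 libraries of cells given XMU_MP_1 and 3 libraries of cells given Vehicle. The compound blocks MST1 and MST2, kinases of the Hippo pathway that hold back the coactivators YAP and TAZ. Cells are described as transfected with the compound, at a dose and for a time the labels omit, and all 6 libraries come from a single cell line, so no other genotype or cell type was tested. Values are FPKM, which corrects fragment numbers for transcript length and library total, so levels of different genes can be set side by side per length.

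Wnt proteins are secreted, lipid-modified ligands that bind Frizzled receptors and, in the canonical branch, the co-receptors LRP5 and LRP6. Without a ligand, a destruction complex built on APC and the axins lets the kinase GSK3B mark β-catenin for degradation. With a ligand, Dishevelled proteins are recruited, the complex is held at the membrane and β-catenin enters the nucleus, where it acts with TCF and LEF factors. Some ligands, WNT5A above all, mainly signal without β-catenin through cell polarity and calcium branches. In the kidney, Wnt signals are known for their part in nephron induction and in injury repair.

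A gene was tested where its mean over the 6 libraries was at least 1 FPKM, with limma on log2(FPKM + 1) over all 11151 such genes. Log2 changes are XMU_MP_1 minus Vehicle on that scale, which understates the change of low genes. "Rose" and "fell" are used only at a Benjamini-Hochberg adjusted p below 0.05, two-sided, and errors of means are SDs over the 3 libraries of a group. Nothing in the labels says that replicates were separate cultures; p-values therefore reflect only library-to-library spread, possibly technical. In bulk RNA, fewer cells expressing a gene and less RNA per cell cannot be told apart.

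The libraries carried the renal lineage of the label. The lineage factor gene PAX8 ranged from 112.51 to 132.76 FPKM, and of 9 listed renal carcinoma markers only CA9 stayed below 1 FPKM in every library. Summed markers of fibroblasts reached at most 0.72 FPKM in XMU_MP_1 libraries and 0.91 in Vehicle libraries, and those of endothelium at most 0.12 and 0.28, with the defining genes CDH5 and VWF at or below 0.01. In the leukocyte list the pan-leukocyte gene PTPRC stayed at or below 0.45 FPKM, whereas CD68, a lysosomal protein gene, ranged from 31.08 to 32.22 FPKM in XMU_MP_1 libraries and from 31.07 to 32.98 FPKM in Vehicle libraries. Some renal markers differed between the groups, HAVCR1 averaging 13.0 FPKM with XMU_MP_1 and 43.6 with Vehicle and LHX1 6.99 and 17.4, and the part of this in the results was not tested. XMU_MP_1 replicate 3 and Vehicle replicate 2 stood apart from the other 2 libraries of their group. Across the 3950 genes averaging 20 FPKM or more, log2 differences had an SD of 0.0699 between XMU_MP_1 replicates 1 and 2 and of 0.0904 between Vehicle replicates 1 and 3, against 0.142 to 0.154 for other pairs within a group.

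All 4 tested Wnt ligand genes and all 3 tested TCF/LEF genes fell, though WNT3 did so with a call that several alternatives ended, and 12 further ligand genes and TCF7L1 were too low to be tested. Frizzled and destruction complex genes changed in both directions, and the LRP genes and CTNNB1 did not pass. Of the 45 genes, 27 had a mean of at least 1 FPKM, and 18 were too low to be tested. Among the 27, 13 fell (48.1%) and 5 rose (18.5%). Over all tested genes 25.9% fell and 32.0% rose, so falls took a larger share of the Wnt genes and rises a smaller one. The share called in either direction, 66.7% of the Wnt genes against 57.9% of all genes, was not far from that of the transcriptome. Large falls were more frequent than over all genes. The family was chosen with earlier results of these data known, and this difference was not tested. WNT7B, WNT5A, TCF7 and WNT5B fell at least 2-fold on the log2 scale, 4 of 27 genes (14.8%), against 2.74% of all tested genes. None of the 27 rose as much, against 0.735% of all genes. The median log2 change was -0.10 over the 27 genes and 0.04 over all tested genes. The groups were fully apart for 19 of the 27, against 63.7% of all tested genes. With XMU_MP_1 replicate 3 and Vehicle replicate 2 left out, 12 fell and 8 rose, and tested against a minimum fold of 1.5 only WNT7B, WNT5A, TCF7 and WNT5B remained.

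**Figure D1:**
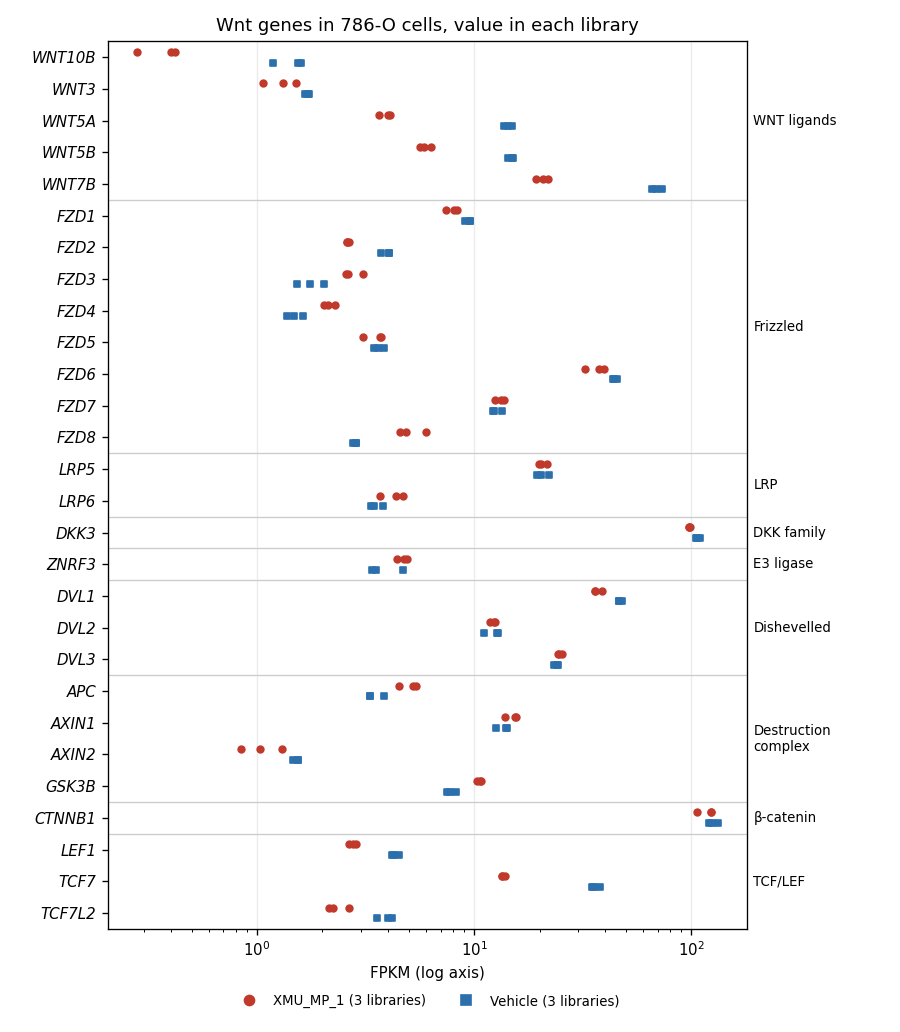
FPKM of each tested Wnt gene and of WNT10B in every library, on a log axis, grouped by role; circles are the 3 XMU_MP_1 libraries and squares the 3 Vehicle libraries. WNT7B lies between 19.3 and 21.77 FPKM with XMU_MP_1, below the 66 to 73.23 FPKM with Vehicle, and the groups of CTNNB1 overlap.

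**Figure D2:**
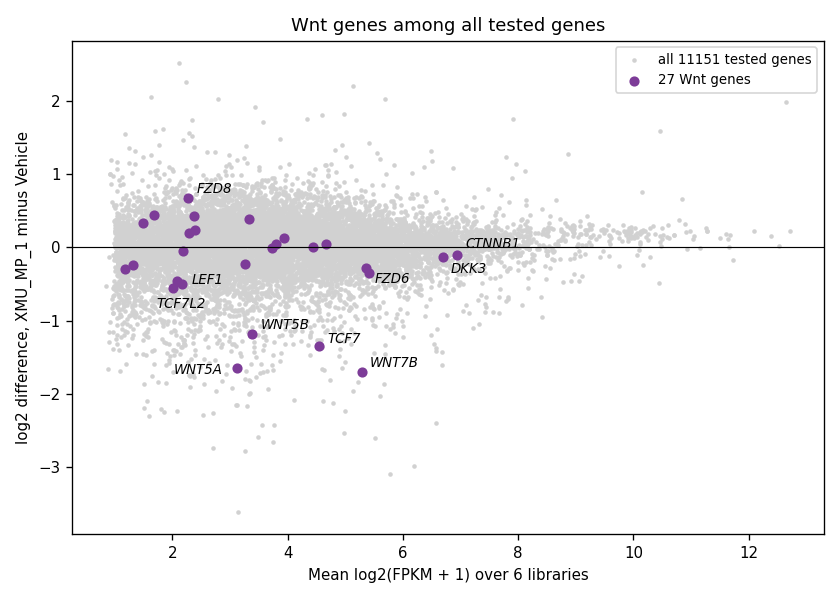
Log2 difference, XMU_MP_1 minus Vehicle, against mean log2(FPKM + 1) for all 11151 tested genes (grey) and the 27 tested Wnt genes (purple). WNT7B, WNT5A, TCF7 and WNT5B lie below -1, and FZD8 is the highest of the Wnt genes at 0.68.

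WNT7B, a ligand gene active in the collecting duct lineage of the mouse kidney, was the most abundant ligand gene of these cells. It measured 19.3, 20.79 and 21.77 FPKM in the XMU_MP_1 libraries, against 68.58, 73.23 and 66 FPKM in the Vehicle libraries. The groups are far apart and every XMU_MP_1 library is low. Mean levels were 20.6 ± 1.24 FPKM with XMU_MP_1 and 69.3 ± 3.66 FPKM with Vehicle, a 3.36-fold fall or -1.70 ± 0.0607 in log2 (SE; limma adjusted p = 7.29e-09). By size of fall WNT7B ranked 57 among the 11151 tested genes. The gene lies on chromosome 22 at 45920362 to 45977129 (GRCh38, GENCODE release 29, minus strand).

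WNT5A, the main ligand of the branches without β-catenin, fell by a similar factor. Its levels were 4, 4.09 and 3.63 FPKM with XMU_MP_1, against 14.93, 14.24 and 13.73 FPKM with Vehicle. The fall was 3.66-fold, or -1.64 ± 0.0661 in log2 (SE; limma adjusted p = 1.6e-08), with rank 66 among all falls. WNT5A lies on chromosome 3 at 55465715 to 55490539. Its close relative WNT5B, on chromosome 12 at 1529891 to 1647243, measured 5.89, 5.65 and 6.35 FPKM with XMU_MP_1, against 14.28, 14.98 and 15.15 FPKM with Vehicle. In Vehicle cells the levels of WNT5A and WNT5B were close, 14.3 ± 0.602 and 14.8 ± 0.461 FPKM, and in XMU_MP_1 cells WNT5B was the higher of the pair, at 5.96 ± 0.356 against 3.91 ± 0.244 FPKM for WNT5A. The fall of WNT5B was 2.48-fold (log2 change -1.18, limma adjusted p = 1.17e-07).

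Windows around the annotated start sites of WNT5A and WNT5B are shown because both genes fell together from like levels. Each runs from 250 bases before to 50 bases after a RefSeq start (GRCh38.p14), is written 5′ to 3′ on the gene's strand, and would show a TCF/LEF motif in capitals; neither holds any. RefSeq gives both genes a second start, and FPKM does not show which start these cells use.
WNT5A, chr3:55487257-55487556, minus strand: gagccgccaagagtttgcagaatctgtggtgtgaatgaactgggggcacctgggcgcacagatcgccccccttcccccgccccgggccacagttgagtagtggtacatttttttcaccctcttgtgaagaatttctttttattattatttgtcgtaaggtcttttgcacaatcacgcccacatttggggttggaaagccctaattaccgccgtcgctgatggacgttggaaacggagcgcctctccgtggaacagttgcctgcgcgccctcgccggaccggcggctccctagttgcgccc
WNT5B, chr12:1616806-1617105, plus strand: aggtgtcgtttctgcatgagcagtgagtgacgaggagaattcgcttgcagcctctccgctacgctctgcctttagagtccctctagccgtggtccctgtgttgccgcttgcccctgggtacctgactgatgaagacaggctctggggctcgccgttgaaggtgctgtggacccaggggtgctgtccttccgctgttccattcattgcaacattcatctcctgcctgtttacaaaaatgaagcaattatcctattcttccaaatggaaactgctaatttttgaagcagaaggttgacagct
The WNT5A window had 56.3% G and C with 21 CG pairs, and the WNT5B window 51.7% with 10, against medians of 58.7% and 14 over 34796 windows of the same length.

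WNT3, a canonical ligand gene on chromosome 17, was low in both groups. It measured 1.07, 1.31 and 1.51 FPKM with XMU_MP_1, against 1.72, 1.67 and 1.73 FPKM with Vehicle, with no overlap. The difference passed (log2 change -0.24, limma adjusted p = 0.0269), but the call rested on several libraries. It was lost without XMU_MP_1 replicate 1 (adjusted p = 0.111), XMU_MP_1 replicate 2 (0.0526), Vehicle replicate 1 (0.0674) or Vehicle replicate 3 (0.0697), and with the close pairs of libraries averaged (0.114).

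The other 12 ligand genes were too low to be tested. WNT10B, with a mean of 0.902 FPKM, lay just under the limit, as AXIN2, with 1.29 FPKM, lay just above it. WNT10B, a canonical ligand gene, had 0.4, 0.28 and 0.42 FPKM with XMU_MP_1, against 1.54, 1.59 and 1.18 FPKM with Vehicle. The groups did not overlap, and the ratio of means was 3.92-fold, lower with XMU_MP_1. WNT10A had 0, 0.09 and 0.14 FPKM with XMU_MP_1 and 0.44, 0.27 and 0.36 FPKM with Vehicle, and WNT2B had 0.26, 0.31 and 0.21 FPKM against 0.44, 0.46 and 0.38. In a fit with no lower limit, over 17077 genes, these 3 passed as lower in limma (adjusted p = 0.000195 for WNT10B, 0.00372 for WNT10A and 0.0144 for WNT2B). WNT4 and WNT9B, genes of nephron formation in mice, stayed at or below 0.28 FPKM in every library with overlapping groups. WNT2, WNT6, WNT7A, WNT8A, WNT8B, WNT9A and WNT16 did not exceed 0.1 FPKM in any library.

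Summed over the 16 ligand genes, Wnt ligand transcripts stood at 31.39, 32.87 and 34.34 FPKM in the XMU_MP_1 libraries, against 102.27, 106.82 and 98.85 FPKM in the Vehicle libraries, 3.12-fold less. WNT7B held most of that sum in both groups. Its share was 62.7% ± 1.06 with XMU_MP_1 and 67.5% ± 0.959 with Vehicle. The share of WNT5B was 18.1% ± 0.842 with XMU_MP_1 and 14.4% ± 0.77 with Vehicle, and that of WNT5A 11.9% ± 1.18 with XMU_MP_1 and 13.9% ± 0.635 with Vehicle. WNT3 held 3.93% ± 0.497 with XMU_MP_1 and 1.67% ± 0.0945 with Vehicle, and WNT2B 0.794% ± 0.168 with XMU_MP_1 and 0.415% ± 0.0266 with Vehicle, both larger shares of a smaller sum. These sums are descriptions of the measured genes and were not tested.

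**Figure D3:**
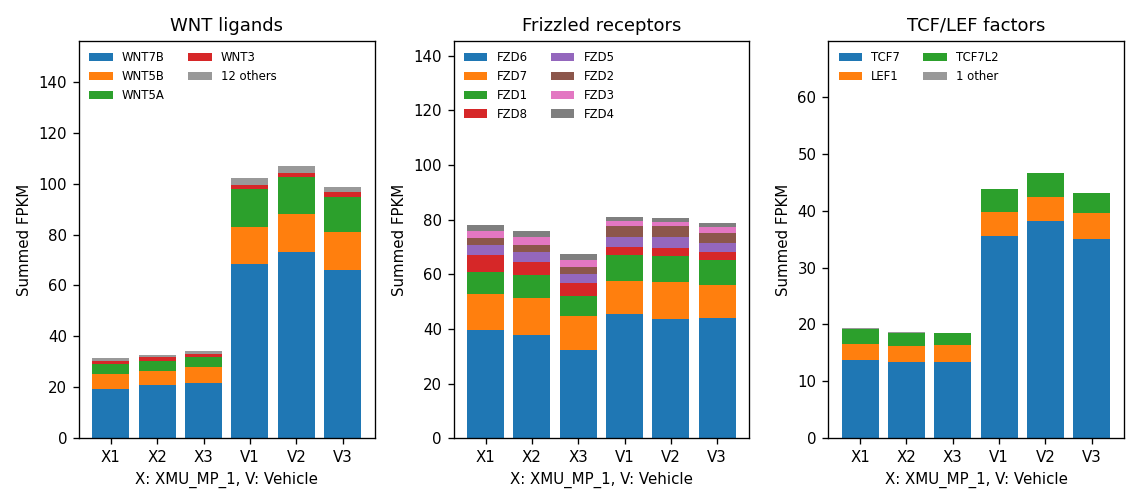
Summed FPKM of the Wnt ligand, Frizzled and TCF/LEF genes in each library, stacked by gene; X1 to X3 are the XMU_MP_1 libraries and V1 to V3 the Vehicle libraries. The ligand sum averages 32.9 FPKM with XMU_MP_1 and 103 FPKM with Vehicle, while the Frizzled sum averages 73.8 and 80.03 FPKM.

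The Frizzled receptor genes were divided, with 3 that fell, 3 that rose and 2 that did not pass. Among all tested genes 25.9% fell and 32.0% rose, 57.9% in either direction, so a divided group is not unusual here. Their sum, which was not tested, was 78.19, 75.81 and 67.26 FPKM with XMU_MP_1, against 80.82, 80.68 and 78.58 FPKM with Vehicle. It averaged 73.8 ± 5.75 FPKM with XMU_MP_1 and 80.03 ± 1.25 FPKM with Vehicle. FZD6, which encodes a receptor of the planar polarity branch, was by far the most abundant. It measured 39.59, 37.67 and 32.24 FPKM with XMU_MP_1, against 45.31, 43.75 and 43.88 FPKM with Vehicle. XMU_MP_1 replicate 3 was the lowest, but no XMU_MP_1 library reached a Vehicle library (1.21-fold fall, limma adjusted p = 0.00646). FZD2 fell 1.51-fold, with 2.6, 2.6 and 2.66 FPKM in XMU_MP_1 libraries against 4.06, 4.07 and 3.74 FPKM in Vehicle libraries (log2 change -0.45, limma adjusted p = 0.000178). FZD1 fell least, 1.18-fold, at 7.94 ± 0.461 FPKM with XMU_MP_1 and 9.40 ± 0.298 FPKM with Vehicle (limma adjusted p = 0.0128).

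FZD8 rose most among the Wnt genes. Its levels were 5.98, 4.57 and 4.83 FPKM with XMU_MP_1, against 2.76, 2.84 and 2.84 FPKM with Vehicle, a 1.82-fold rise (log2 change 0.68 ± 0.0875, SE, limma adjusted p = 7.5e-05). The XMU_MP_1 libraries were spread more widely than the Vehicle libraries but lay wholly above them. FZD3, known from axon guidance and planar polarity in mice, measured 2.62, 3.07 and 2.58 FPKM with XMU_MP_1, against 1.75, 1.52 and 2.04 FPKM with Vehicle (1.56-fold, limma adjusted p = 0.00145). FZD4, the receptor of the ligand norrin, measured 2.29, 2.12 and 2.03 FPKM with XMU_MP_1, against 1.48, 1.63 and 1.37 FPKM with Vehicle (1.44-fold, limma adjusted p = 0.00253). Exons of FZD4 share 1399 bases (18.9% of its exon bases) with PRSS23 on the opposite strand, and whether the counting used strand is not given in the sources used here. PRSS23 itself was lower with XMU_MP_1, at 19.97 ± 0.578 FPKM against 31.1 ± 1.45 FPKM with Vehicle.

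FZD7 and FZD5 did not pass. FZD7, next to FZD6 in abundance, averaged 13.2 ± 0.689 FPKM with XMU_MP_1 and 12.6 ± 0.683 FPKM with Vehicle, a log2 change of 0.05 with a 95% interval of -0.09 to 0.19, though with XMU_MP_1 replicate 3 and Vehicle replicate 2 both left out it passed as higher (limma adjusted p = 0.0388). FZD5 averaged 3.50 ± 0.367 FPKM with XMU_MP_1 and 3.63 ± 0.196 FPKM with Vehicle, a log2 change of -0.04 with an interval of -0.22 to 0.13. In the order of levels FZD6, FZD7 and FZD1 led in both groups, with no overlap between these 3. FZD8 was the fourth in XMU_MP_1 cells and the sixth in Vehicle cells. It lay above FZD5 in every XMU_MP_1 library and below FZD5 in every Vehicle library. The share of FZD8 in the Frizzled sum was 6.95% ± 0.834 with XMU_MP_1 and 3.52% ± 0.0996 with Vehicle.

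The canonical co-receptor genes did not pass. LRP5 measured 19.96, 20.37 and 21.63 FPKM with XMU_MP_1, against 20.31, 22.1 and 19.43 FPKM with Vehicle, a log2 change of 0.00 with a 95% interval of -0.13 to 0.14. LRP6 measured 4.35, 4.72 and 3.68 FPKM with XMU_MP_1, against 3.47, 3.82 and 3.35 FPKM with Vehicle. Its groups overlapped through XMU_MP_1 replicate 3 (log2 change 0.20, limma adjusted p = 0.0623), and it passed as higher without that library (adjusted p = 0.0102), without Vehicle replicate 2 (0.0473) and with the replicate number as a block (0.0236).

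ZNRF3 encodes a ubiquitin ligase that clears Frizzled receptors from the cell surface. It had 4.73, 4.92 and 4.42 FPKM with XMU_MP_1, against 3.39, 4.7 and 3.52 FPKM with Vehicle. Vehicle replicate 2 was the only Vehicle library among the XMU_MP_1 values (log2 change 0.23, limma adjusted p = 0.0629), and without it the gene passed as higher (adjusted p = 0.00307). With the replicate number as a block it passed as well (adjusted p = 0.0169). Its paralogue RNF43 had 0.03, 0.04 and 0 FPKM with XMU_MP_1 and 0.07, 0.07 and 0.06 FPKM with Vehicle, too low to be tested.

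Among the DKK and SFRP genes, nearly all transcripts were of DKK3, a divergent DKK family gene. It measured 97.6, 99 and 97.03 FPKM with XMU_MP_1, against 105.87, 109.94 and 105.14 FPKM with Vehicle, and its mean level lay above that of 95.5% of listed genes. The fall was 1.09-fold and passed narrowly (log2 change -0.13, limma adjusted p = 0.0421). Leaving out any 1 of the 6 libraries ended that call, with adjusted p from 0.0528 without XMU_MP_1 replicate 3 to 0.107 without XMU_MP_1 replicate 1, and averaging the close pairs gave 0.191. DKK1, the antagonist that binds LRP6, was listed at 0 in 5 libraries and at 0.06 FPKM in XMU_MP_1 replicate 3. DKK4 stayed at or below 0.3 FPKM, SFRP2 at or below 0.03 and SFRP4 at or below 0.09, all with overlapping groups.

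Inside the cell, DVL1 was the Dishevelled gene that changed. It measured 35.88, 36.01 and 38.85 FPKM with XMU_MP_1, against 46.58, 48.1 and 46.65 FPKM with Vehicle, a 1.28-fold fall (log2 change -0.34, limma adjusted p = 0.000214). DVL2 averaged 12.2 ± 0.364 FPKM with XMU_MP_1 and 12.2 ± 0.992 FPKM with Vehicle. DVL3 averaged 24.8 ± 0.654 FPKM with XMU_MP_1 and 23.8 ± 0.52 FPKM with Vehicle, with groups that did not overlap by a small margin but no call (limma adjusted p = 0.395). The 95% intervals of their log2 changes were -0.15 to 0.15 for DVL2 and -0.06 to 0.16 for DVL3.

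Of the 4 destruction complex genes, 2 rose and 1 fell, where 32.0% of all tested genes rose and 25.9% fell. The scaffold gene APC measured 5.22, 5.37 and 4.48 FPKM with XMU_MP_1, against 3.32, 3.83 and 3.31 FPKM with Vehicle (1.44-fold rise, limma adjusted p = 0.00114). The kinase gene GSK3B measured 10.65, 10.72 and 10.25 FPKM with XMU_MP_1, against 7.46, 8.27 and 7.73 FPKM with Vehicle (1.35-fold rise, limma adjusted p = 0.000319). In both, every XMU_MP_1 library lay above every Vehicle library. AXIN1, the constitutive axin gene, averaged 15.0 ± 0.929 FPKM with XMU_MP_1 and 13.6 ± 0.899 FPKM with Vehicle and did not pass (log2 change 0.13, limma adjusted p = 0.132).

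AXIN2, whose transcription is itself induced by β-catenin and which is widely used as a readout of the canonical branch, was low. It measured 1.3, 1.03 and 0.84 FPKM with XMU_MP_1, against 1.55, 1.54 and 1.46 FPKM with Vehicle. All XMU_MP_1 libraries lay below the Vehicle libraries, with replicate 1 nearest to them (1.44-fold fall, limma adjusted p = 0.0139). With XMU_MP_1 replicate 3 and Vehicle replicate 2 both left out, AXIN2 no longer passed (adjusted p = 0.0681). A second annotated gene on the same strand covers 25.2% of its exon bases, so its values are uncertain where reads could be split.

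CTNNB1, the β-catenin gene, was the most abundant of the 45 genes by mean level and did not pass. Its levels were 122.74, 123.79 and 106.17 FPKM with XMU_MP_1, against 120.92, 132.59 and 123.84 FPKM with Vehicle. The groups overlapped, with a log2 change of -0.10 and a 95% interval of -0.25 to 0.05 (limma adjusted p = 0.238). Transcript levels do not show how much β-catenin protein was present, since it is controlled mainly by degradation.

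All 3 tested TCF/LEF genes fell, where 25.9% of all tested genes fell. TCF7, which encodes TCF1, held most of the family's transcripts and fell most. It measured 13.84, 13.46 and 13.48 FPKM with XMU_MP_1, against 35.59, 38.13 and 35.01 FPKM with Vehicle. The XMU_MP_1 libraries were nearly equal and lay far below every Vehicle library, a 2.67-fold fall (log2 change -1.35 ± 0.0534, SE, limma adjusted p = 1.44e-08, rank 123 among all falls). TCF7 lies on chromosome 5 at 134114711 to 134151865. Its exons share 210 bases (2.09%) with SKP1 on the opposite strand, and SKP1 was higher with XMU_MP_1, at 110 ± 7.7 FPKM against 79.1 ± 7.96 FPKM with Vehicle.

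TCF7L2 encodes TCF4, a main partner of β-catenin in epithelia. It measured 2.65, 2.23 and 2.15 FPKM with XMU_MP_1, against 4.02, 4.2 and 3.56 FPKM with Vehicle (1.68-fold fall, limma adjusted p = 0.00019). LEF1 measured 2.66, 2.77 and 2.84 FPKM with XMU_MP_1, against 4.18, 4.26 and 4.5 FPKM with Vehicle (1.56-fold fall, limma adjusted p = 8.6e-05). Neither gene's groups overlapped. TCF7L1, mostly a repressor, stayed at or below 0.17 FPKM and was not tested. Summed TCF/LEF transcripts averaged 18.8 ± 0.44 FPKM with XMU_MP_1 and 44.5 ± 1.82 FPKM with Vehicle, and TCF7 held 72.3% ± 0.639 of the sum with XMU_MP_1 and 81.3% ± 0.396 with Vehicle.

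**Figure D4:**
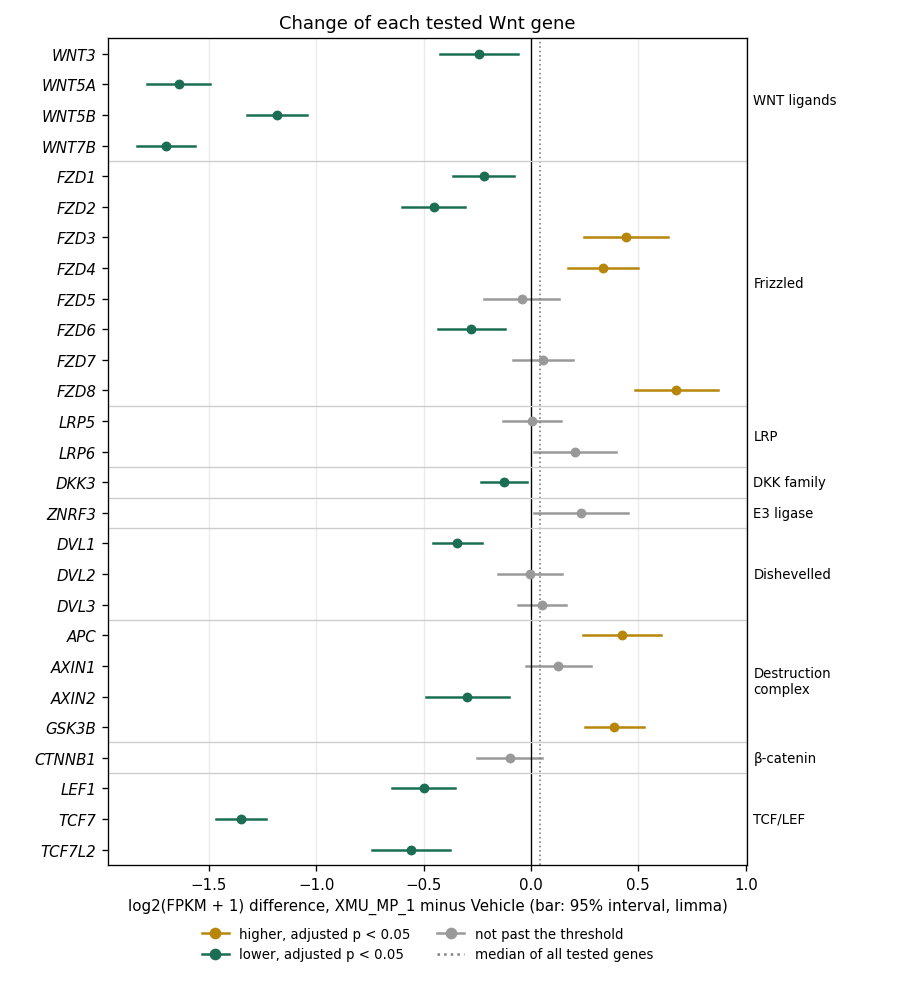
Log2 difference, XMU_MP_1 minus Vehicle, of the 27 tested Wnt genes by role, with 95% intervals from limma; the dotted line is the median of all tested genes, 0.04. Every tested ligand and TCF/LEF gene lies below 0, from -1.70 for WNT7B to -0.24 for WNT3, while Frizzled genes lie on both sides.

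TCF7 has 2 annotated start regions in RefSeq, and both windows are shown since its own product reads the TCF/LEF motif. The downstream start is known for shorter forms of TCF1 that lack the β-catenin binding region. Capitals mark a TCF/LEF motif.
TCF7 upstream start, chr5:134115363-134115662, plus strand: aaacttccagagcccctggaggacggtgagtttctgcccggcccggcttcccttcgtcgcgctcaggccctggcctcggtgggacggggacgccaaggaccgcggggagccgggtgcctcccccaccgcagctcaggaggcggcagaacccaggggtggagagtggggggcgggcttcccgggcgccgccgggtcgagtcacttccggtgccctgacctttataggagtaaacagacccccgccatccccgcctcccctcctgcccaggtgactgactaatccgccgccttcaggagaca
TCF7 downstream start, chr5:134123368-134123667, plus strand: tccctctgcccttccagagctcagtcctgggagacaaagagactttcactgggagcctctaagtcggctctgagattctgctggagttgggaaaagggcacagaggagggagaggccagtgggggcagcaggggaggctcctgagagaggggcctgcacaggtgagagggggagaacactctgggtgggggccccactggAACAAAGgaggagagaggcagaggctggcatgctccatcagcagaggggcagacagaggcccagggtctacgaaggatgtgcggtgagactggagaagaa
The upstream window holds no TCF/LEF motif. The downstream window holds 1, in reverse orientation and beginning 50 bases before the start site. FPKM per gene does not separate the forms made from these starts.

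Start-site windows of the same kind were found for 34 of the 45 genes, 42 windows in all. WNT7B, WNT10B, AXIN2 and FZD2 were among the genes without a window, so they were not searched. Motifs were searched on both strands and may overlap. The TCF/LEF motif was taken as CTTTGAA, or with its end changed as CTTTGAT, or in the third form as CTTTGTA, or in the fourth form as CTTTGTT. The TEAD motif was read as GGAATG, and the AP-1 motif as TGACTCA or its reverse complement TGAGTCA. NF-κB was searched by its known motif. A TCF/LEF motif was in 4 windows (9.52%), those of DKK1, TCF7, TCF7L2 and WNT3, against 13.8% of 34796 windows in the table. A TEAD motif was in 4 windows (9.52%), those of APC, DKK1, RNF43 and WNT16, against 14.0%. An NF-κB motif was in 4 windows (9.52%), those of FZD5, TCF7L2, WNT10A and WNT4, against 5.91%, and the 2 matches in WNT10A overlap. An AP-1 motif was in the RNF43 window alone (2.38%), against 4.96%. These are matches of letters within 300 bases, not measured binding.

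Beyond the named family, 107 further Wnt pathway genes in 9 lists were in the tables, of which 72 were tested. Of these, 34 fell, 21 rose and 17 did not pass, and on the log2(FPKM + 1) scale 3 fell and 0 rose at least 2-fold. The shares over all tested genes were 25.9% that fell and 32.0% that rose. At least 2-fold, they were 2.74% and 0.735%. Among the 34 falls, PRICKLE2 (also among the 3), DACT1, KREMEN2 and BMP4 reached a mean of 1 FPKM only through the Vehicle group. A gene such as DACT3, higher with XMU_MP_1 but below that limit, could not be counted. The 72 genes had a median log2 change of -0.09, against 0.04 over all tested genes. With each library rescaled to the same summed FPKM, 35 fell and 11 rose.

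In the list of Wnt secretion genes, 2 of 5 tested fell (PORCN and GPC4) and 1 rose (TMED5), against 25.9% and 32.0% of all tested genes. PORCN, the acyltransferase that lipidates Wnt proteins, measured 31.15, 31.03 and 34.75 FPKM with XMU_MP_1, against 43.79, 44.1 and 45.74 FPKM with Vehicle (1.38-fold fall, limma adjusted p = 6.26e-05). WLS, which carries lipidated Wnt to the cell surface, averaged 15.4 ± 1.88 FPKM with XMU_MP_1 and 16.7 ± 0.276 FPKM with Vehicle and did not pass (adjusted p = 0.198). No R-spondin gene was high enough to be tested. Their receptor gene LGR4, the only tested gene of its list, fell 1.49-fold (limma adjusted p = 0.000236).

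Of 9 other tested receptor and planar polarity genes, 6 fell and 0 rose, with a median log2 change of -0.24. Across all tested genes 25.9% fell and 32.0% rose, 57.9% in either direction. PRICKLE2, a core planar polarity gene, fell 4.34-fold, with 0.88, 1.09 and 0.93 FPKM in XMU_MP_1 libraries against 4.18, 4.61 and 3.81 FPKM in Vehicle libraries (limma adjusted p = 1.94e-07). PRICKLE2 reached a mean of 1 FPKM only through the Vehicle group. PRICKLE1 fell 2.09-fold. ROR1, a receptor for WNT5A, measured 6.42, 6.11 and 4.53 FPKM with XMU_MP_1, against 11.56, 13.67 and 12.08 FPKM with Vehicle (2.19-fold fall, limma adjusted p = 1.7e-05). Groups of all 3 genes were apart. RYK, PTK7 and SCRIB did not pass. ROR2, the relative of ROR1, was too low to be tested, at 0.787 FPKM with XMU_MP_1 and 0.777 FPKM with Vehicle.

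All 4 tested genes of other Wnt antagonists fell, with a median log2 change of -0.36, where 25.9% of all tested genes fell. TRABD2A, which encodes a protease that cleaves Wnt proteins, fell 1.51-fold, TPBG 1.28-fold, and the DKK receptor genes KREMEN1 and KREMEN2 1.35-fold each. KREMEN2 averaged 0.933 FPKM with XMU_MP_1 and 1.26 FPKM with Vehicle, so it was tested only through the group where it was high, and 4 other genes of the list were too low to be tested. Of the feedback inhibitor genes only DACT1, a Dishevelled antagonist gene, was tested. It fell 3.08-fold, at 0.82, 0.86 and 0.56 FPKM with XMU_MP_1 against 2.09, 2.46 and 2.34 FPKM with Vehicle (limma adjusted p = 7.77e-06). It passed the limit of 1 FPKM only through the Vehicle group, and DACT3, which was higher with XMU_MP_1 (0.417 against 0.0467 FPKM with Vehicle), lay below it.

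Of 13 further tested destruction complex, kinase and turnover genes, 6 rose and 2 fell, with a median log2 change of 0.17. Rises also outnumbered falls over all tested genes, at 32.0% against 25.9%. RNF146, which encodes a ligase that degrades axin, rose 1.54-fold, and CSNK1G3, BTRC and GSK3A rose 1.28-fold, 1.30-fold and 1.16-fold. CSNK1G2 fell 1.22-fold. Of 14 nuclear partners of β-catenin and TCF, 8 fell and 4 rose, with a median log2 change of -0.23. BCL9L, a coactivator that docks on β-catenin, measured 11.78, 12.6 and 11.45 FPKM with XMU_MP_1, against 30.29, 35.63 and 28.99 FPKM with Vehicle (2.65-fold fall, limma adjusted p = 1.94e-07). The corepressor genes CTBP2 and TLE1 fell 1.44-fold and 1.53-fold, whereas PYGO2, which encodes the partner of BCL9 proteins, rose 1.45-fold.

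In a list of signalling genes of the branches without β-catenin, kept apart from the planar polarity list above, 7 of 10 tested rose, 0 fell and 3 did not pass, with a median log2 change of 0.23. Over all tested genes 32.0% rose. Another 5 listed genes were too low to be tested, among them NFATC2 and DAAM2, which had lower values with XMU_MP_1 and no overlap. The kinase genes MAPK8 and MAP3K7 rose 1.69-fold and 1.40-fold, the formin gene DAAM1 2.04-fold and NFATC3 1.41-fold. DAAM1 measured 4.55, 4.98 and 3.73 FPKM with XMU_MP_1, against 2.01, 2.55 and 1.93 FPKM with Vehicle (limma adjusted p = 8.94e-05).

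Known β-catenin targets outside the family fell in 10 of 15 tested cases and rose in 3, with a median log2 change of -0.25. Over all tested genes 25.9% fell and 32.0% rose. BMP4, counted among the falls, averaged 0.92 FPKM with XMU_MP_1 and 1.29 FPKM with Vehicle, with overlapping groups. It reached the limit of 1 FPKM only through the Vehicle group. CCND1, the cyclin D1 gene, measured 98.47, 100.08 and 91.02 FPKM with XMU_MP_1, against 170.35, 191.56 and 171.91 FPKM with Vehicle (1.84-fold fall, limma adjusted p = 1.03e-06). EPHB2 fell 1.70-fold and FOSL1 1.60-fold, and MYC fell 1.20-fold, at 26.8 ± 1.36 FPKM with XMU_MP_1 and 32.1 ± 0.784 FPKM with Vehicle (limma adjusted p = 0.00246). BAMBI, which encodes a decoy receptor for TGF-β family ligands, rose 1.95-fold. Most of these genes respond to other pathways as well. LGR5, NKD1 and NOTUM, targets closely tied to the canonical branch, averaged below 0.1 FPKM in both groups and were not tested. Among other targets too low to be tested, EPHB3 and FGF18 were higher with XMU_MP_1 and TIAM1 lower, each without overlap.

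**Figure D5:**
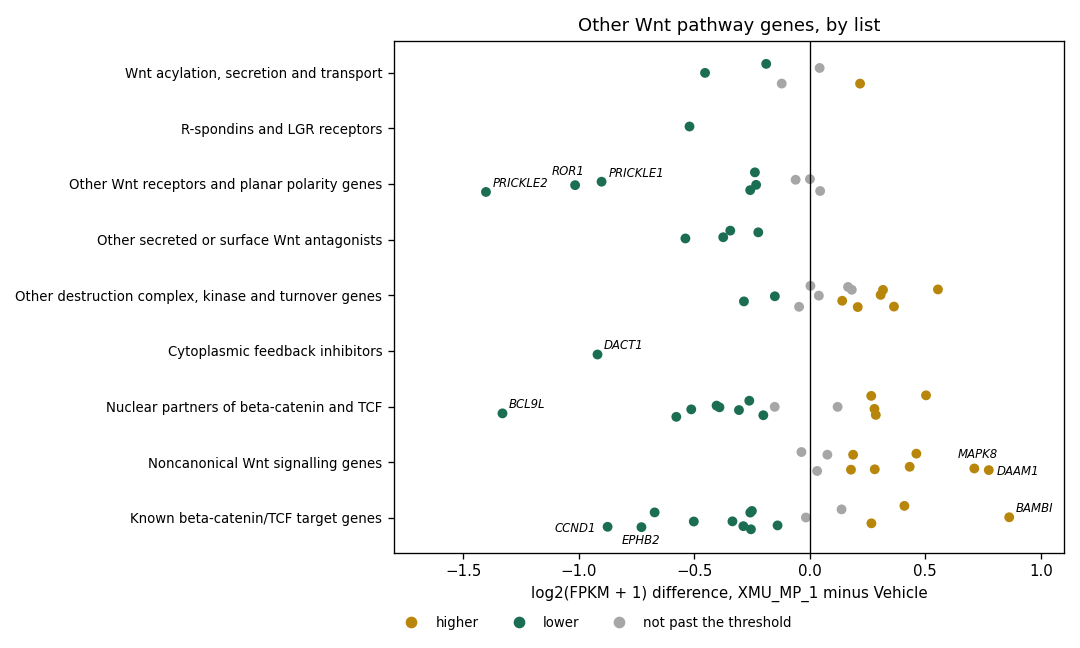
Log2 difference, XMU_MP_1 minus Vehicle, of the 72 other tested Wnt pathway genes, 1 point per gene in each of 9 lists, coloured by call. PRICKLE2 (-1.40) and BCL9L (-1.33) lie lowest, and tested genes of the list named noncanonical lie above 0 apart from CAMK2D (-0.04).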

How the data were processed

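The authors' deposited tables, 1 for each library, hold FPKM for 17114 gene symbols, per the file headers. Sequencing libraries followed BGISEQ-500 protocols, per the labels. The submitters' processing notes name the build GRCh38. Which aligner and quantifier were run, and whether strand was used, is not given in the sources used here. Without counts, depth is unknown and no count model was used. Summed FPKM ran from 495351 to 527709 in XMU_MP_1 libraries and from 454889 to 487218 in Vehicle libraries.

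Groups come from the sample titles. Genes averaging 1 FPKM or more entered a limma 3.58.1 fit (R 4.3.3; statmod 1.5.0) of log2(FPKM + 1) on group, with variance trend and robust moderation. Benjamini-Hochberg adjustment covered all tested genes, and libraries were not rescaled. The fit was tested on simulated data. Every tested member is named, as are members reaching 0.5 FPKM and up to 4 genes per list, plus a few chosen after their values were seen. The members and lists were chosen with earlier results of these data known. Alternatives changed the pseudocount, filter, scaling, block, libraries and minimum fold. Positions and exon overlaps are from GENCODE release 29 (GRCh38), and start-site sequences from RefSeq (GRCh38.p14).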

Additional observations from a re-analysis of the deposited data

How the results depend on the processing

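WNT7B, WNT5A, WNT5B and TCF7 stayed lower and past the threshold in all 15 alternatives. Of the 18 Wnt genes called, 15, these 4 among them, kept their direction and call outside the test against a minimum fold of 1.5. Genes averaging under 5 FPKM had 14 alternatives, since the filter at 5 FPKM removed them. WNT3, DKK3 and AXIN2 lost their call elsewhere too. The cause was not tested. With a mean of at least 5 FPKM, which leaves 15 of the Wnt genes, 1 was higher and 8 lower; with the close pairs of libraries only, 8 were higher. Against a minimum fold of 1.5, 0 Wnt genes were higher and 4 lower, 1 other pathway gene was higher and 6 lower, and over all genes 158 were higher and 455 lower. With libraries rescaled to the same summed FPKM, 2255 genes were higher and 3448 lower, against 3567 and 2886 without rescaling, 11 other pathway genes were higher, and the median of all genes moved to -0.05. Leaving out 1 library at a time gave 5 to 7 Wnt genes higher and 11 to 12 lower, and over all genes 3053 to 3590 higher and 2545 to 2850 lower. Log2 changes of Wnt genes that had not passed turned sign in some alternatives. Without 1 library, FZD5 ran from -0.0821 to 0.0260, LRP5 from -0.0359 to 0.0527 and DVL2 from -0.0670 to 0.0336. With the close pairs only, FZD5 was 0.0580, DVL2 0.0176 and CTNNB1 0.0104. Rescaled, FZD7 was -0.0355, LRP5 -0.0884 and DVL3 -0.0405. LRP5 was -0.0269 centred on the median and -0.00458 with close pairs averaged.

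Replicate numbers were not taken as pairs. Deviations of same-numbered libraries correlated at -0.204, 0.392 and 0.244, and those of differently numbered libraries at -0.461 to 0.344. These values do not settle whether the numbers mark pairs. With the replicate block, 7 Wnt genes were higher and 13 lower, and over all genes 3956 and 3093. Depth is unknown, so precision at low FPKM could not be set.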

Other observations

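Some pathway genes too low to be tested had groups that did not overlap; they were picked after their values were seen and have no test. DACT3, a feedback inhibitor gene, had 0.35, 0.41 and 0.49 FPKM with XMU_MP_1 and 0.05, 0.06 and 0.03 FPKM with Vehicle, the other direction from DACT1. NFATC2 had 0.01, 0.04 and 0.05 FPKM with XMU_MP_1 and 0.32, 0.29 and 0.19 FPKM with Vehicle, whereas its relative NFATC3 was higher with XMU_MP_1. WNT3 and WNT9B lie 46 bases apart on chromosome 17, and only WNT3 reached 1 FPKM.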
